A study of Mus musculus with 18 samples.

Results

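The cadherins described here are 10 adhesion genes, Cdh4, Cdh6, Cdh7, Cdh8, Cdh9, Cdh10, Cdh11, Cdh12, Cdh13 and Cdh18, taken by gene symbol from the 30905 genes counted in every library, and all 10 were found. Of them, 8 encode type II classical cadherins, while Cdh4 encodes R-cadherin, a type I cadherin, and Cdh13 encodes T-cadherin, which is held in the membrane by a lipid anchor and has no cytoplasmic tail. They were measured by single-nucleus RNA sequencing of the hippocampus (Hip) and the prefrontal cortex (PFC) of 9 Kun Ming mice aged 8 weeks, with 1 library per mouse and region and thus 18 libraries. The germ-free (GF) group held 3 mice raised without microbes in isolators. The study states that its GF mice came from sterile treatment of specific pathogen-free (SPF) mice. The SPF group held 3 mice with the microbiota of an SPF facility. The colonized germ-free (CGF) group held 3 GF mice that shared cages with SPF mice from the age of 4 weeks until sampling at 8 weeks, so they too had grown up without microbes. The GF mice are compared with the SPF mice to see what differs without a microbiota, and the CGF mice are added to see what later colonization leaves different.

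Classical cadherins are single-pass membrane proteins that bind cadherins on a neighbouring cell through their outermost extracellular domain, and catenins tie their tails to the actin cytoskeleton. Type II cadherins dock a pair of tryptophan side chains into the partner, type I cadherins a single one, and which cadherins a neuron makes takes part in sorting neurons and in matching synaptic partners. In the brain each of these genes is known for a restricted pattern over regions, layers and neuron classes, and several are also made by glia and by vessel-associated cells.

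The stretch of the coding sequence that distinguishes the members lies right after the cleavage site of the propeptide, where the mature protein begins, and it is shown because the type II label of the group rests on it. Each line gives 45 bases from the first codon after that site, in the GENCODE vM21 transcript of the gene on GRCm38, with in-frame TGG codons, which encode tryptophan, in capitals.
Cdh4: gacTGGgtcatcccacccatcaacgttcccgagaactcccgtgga
Cdh6: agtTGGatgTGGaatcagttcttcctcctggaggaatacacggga
Cdh7: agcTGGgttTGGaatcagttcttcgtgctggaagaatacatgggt
Cdh8: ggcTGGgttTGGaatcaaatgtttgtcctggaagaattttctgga
Cdh9: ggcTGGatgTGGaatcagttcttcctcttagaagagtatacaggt
Cdh10: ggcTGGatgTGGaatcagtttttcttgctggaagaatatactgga
Cdh11: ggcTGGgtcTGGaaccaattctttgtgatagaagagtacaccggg
Cdh12: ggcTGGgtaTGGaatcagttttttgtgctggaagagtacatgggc
Cdh13: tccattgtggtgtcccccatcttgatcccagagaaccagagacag
Cdh18: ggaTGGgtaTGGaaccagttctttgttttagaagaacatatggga
The 8 type II members carried TGG at codons 2 and 4 of this stretch, Cdh4 carried it at codon 2 only, and Cdh13 had none. Among the 8, pairs shared 66.7% to 86.7% of the 45 bases (median 75.6%), and Cdh7 and Cdh12 shared the most, 39 of 45. Pairs with Cdh4 or Cdh13 shared 33.3% to 46.7% (median 40.0%). On chromosome 15 the stretches of Cdh6 (chr15:13091674-13091718, minus strand), Cdh9 (chr15:16778257-16778301, plus), Cdh10 (chr15:18899751-18899795, plus), Cdh12 (chr15:21237843-21237887, plus) and Cdh18 (chr15:23173861-23173905, plus) follow each other in that order. On chromosome 8 lie those of Cdh8 (chr8:99400750-99400794, minus strand), Cdh11 (chr8:102679636-102679680, minus) and Cdh13 (chr8:118757416-118757460, plus). That of Cdh7 is chr1:109994321-109994365 (plus strand) and that of Cdh4 is chr2:179797560-179797604 (plus strand).

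The members are long genes. Cdh12 spans 1140 kb, Cdh13 1041 kb and Cdh18 925 kb, Cdh4 457 kb and Cdh8 392 kb, and the others between 128 kb for Cdh9 and 195 kb for Cdh10. Their median length was 293.6 kb, against 12.6 kb for all genes with a length, and each was longer than at least 93.5% of them. Length is given here because nuclear RNA is largely unspliced, and a longer gene can yield more reads at the same number of transcripts. Levels are given in CPM, the counts of unique molecular identifiers (UMIs) of a gene scaled so that all UMIs of a cell type in a mouse have the same total, and levels of different genes are compared only per 100 kb of gene. Genes annotated antisense to Cdh8, Cdh9, Cdh13 and Cdh18 overlap them, Acot10 overlaps Cdh12 on the opposite strand and AC124561.1 overlaps it on the same strand, where counting by strand would not part them, and whether counting used the strand and introns is not given in the sources used here, so reads of all these pairs may be mixed.

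The libraries held 49067853 to 63217083 UMIs in Hip, with the groups close to each other. In PFC they held 59126586 to 71463928 UMIs in GF mice, 20336250 to 26949210 in SPF mice and 22213863 to 26151503 in CGF mice, so in PFC group and depth cannot be told apart. In Hip the median UMIs per nucleus were lower in GF (4593 to 5809.5) than in SPF mice (6132 to 7054), and mitochondrial UMIs higher (0.645% to 1.10% against 0.128% to 0.471%). In PFC mitochondrial UMIs ran the other way, with GF mice lowest (0.359% to 0.594%), CGF mice at 1.28% to 2.24% and SPF mice at 1.66% to 3.22%, so the GF mice stood apart in this measure, which moved with their differences from both other groups in PFC and with the interaction, while CGF and SPF mice overlapped. Nuclei were assigned to types by marker genes that are not members, and 63930 nuclei of Hip and 60188 of PFC were assigned. All 12 microglial, 9 oligodendrocyte and 6 oligodendrocyte precursor (OPC) markers were highest in their own type in both regions, as were all subtype markers. The same markers assigned the nuclei, so this was largely set in advance. Of the 7 markers of excitatory neurons, 3 in Hip and 5 in PFC were highest in excitatory neurons, and of the 10 astrocyte markers 6 and 7 were highest in astrocytes. Microglia had the highest level of Slc17a7, Neurod6 and Nrgn in Hip and of Neurod2 and Nrgn in PFC, all markers of excitatory neurons, and of the astrocyte marker Slc1a3 in both regions. Neuronal genes were counted in the droplets of glia, vessel cells, fibroblasts and ependymal cells as well, and their level is given beside the results on glia.

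Over cell types the members fell into genes led by neurons, genes led by glia and genes shared by both. In Hip, Cdh8 was at 629 ± 105 CPM in excitatory neurons, 235 ± 49.9 CPM in interneurons and 135 ± 77.2 CPM in microglia (mean ± SD, n = 9 mice). Both steps of this order held in all 9 mice (two-sided exact permutation test within mice, adjusted p = 0.02372, from p = 0.003906, the smallest that 9 mice allow). Cdh9, which is known from synapses between dentate granule and CA3 neurons, had the same order, with 400.4 ± 55.1 CPM, 214 ± 24.6 CPM and 87.3 ± 41.7 CPM, and both of its steps passed the test with the same p. The microglial means of both genes pool groups that differ. Cdh8 in microglia was at 42.7 CPM in GF, 184 CPM in SPF and 178 CPM in CGF mice, and Cdh9 at 40.7, 96.2 and 125 CPM. Cdh11, first known from bone as OB-cadherin, was at 426 ± 90.9 CPM in excitatory neurons and at 243 ± 44.1 CPM in OPC, and this step passed as well. OPC, fibroblasts and interneurons then followed each other in Cdh11 level without a step that passed the test. Cdh12, also called brain cadherin, did not separate excitatory neurons (529 ± 63.4 CPM) from interneurons (525 ± 134 CPM), and both lay far above the next type, mural cells (102 ± 65.0 CPM). These Cdh12 means pool groups that differ. In excitatory neurons and interneurons they were 480 and 365 CPM in GF mice, 522 and 606 CPM in SPF mice, and 585 and 605 CPM in CGF mice. Cdh18 was at 299 ± 61.7 CPM in interneurons, 205 ± 46.2 CPM in excitatory neurons and 201 ± 53.3 CPM in OPC, and of these steps none passed, whereas the step from OPC to oligodendrocytes (41.1 ± 20.2 CPM) did.

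The members led by glia were Cdh10, Cdh13, Cdh6 and Cdh4. Cdh10 was at 854 ± 99.6 CPM in hippocampal astrocytes, 839 ± 125 CPM in oligodendrocytes and 683 ± 55.8 CPM in OPC, with no step among these 3 types past the test, and all 9 mice had more in OPC than in excitatory neurons (345 ± 48.9 CPM). Cdh13, the lipid-anchored member, was led by OPC at 729 ± 45.1 CPM, above interneurons (419.8 ± 85.8 CPM) and these above excitatory neurons (237 ± 35.0 CPM) in all 9 mice. Cdh6 was also led by OPC, at 213 ± 26.2 CPM, followed by mural cells at 169.9 ± 95.4 CPM, a step that did not pass. Cdh4 was at 202 ± 52.1 CPM in astrocytes and 71.8 ± 15.3 CPM in interneurons, a step that held in 9 of 9 mice. Cdh7 was led by ependymal cells, the ciliated lining of the ventricles, at 119.8 ± 53.6 CPM, above interneurons (59.1 ± 21.9 CPM) in all 9 mice. Of the 90 neighbouring pairs of types in Hip, 18 passed the test, and in PFC 17 of 80 did, so most neighbours in these orders did not differ beyond the spread between mice.

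**Figure D1:**
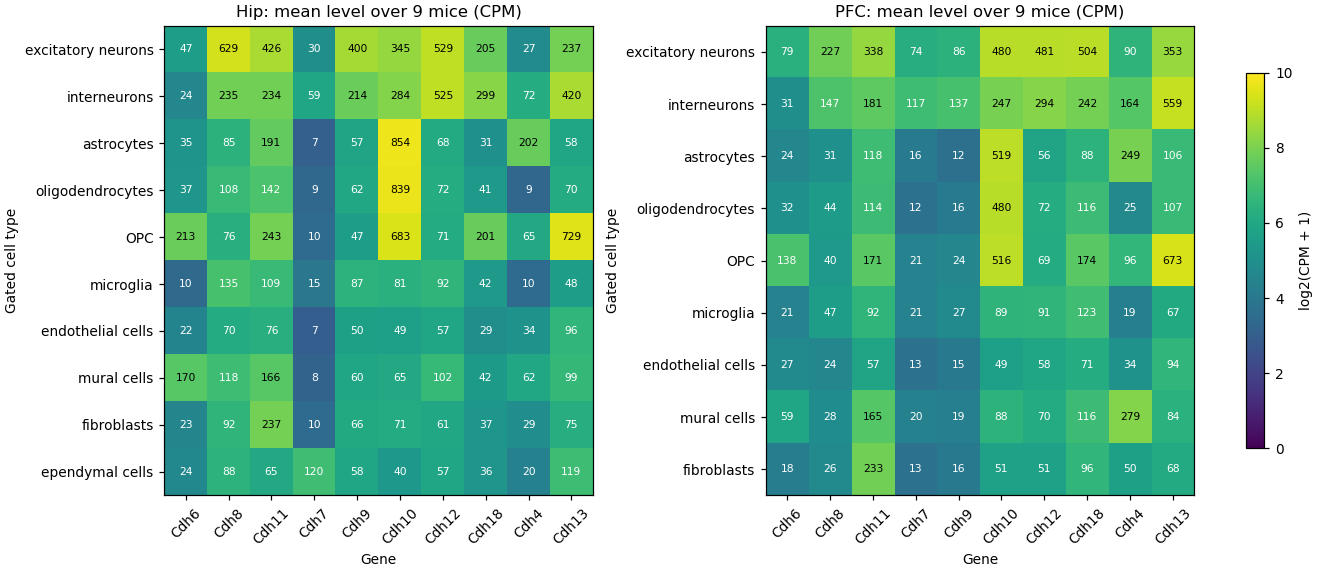
Level of each cadherin (columns) by cell type (rows) in Hip and in PFC, with the mean CPM over 9 mice printed in each square and its log2(CPM + 1) as colour. Cdh10 is high in astrocytes, oligodendrocytes and OPC, Cdh13 and Cdh6 in OPC, Cdh4 in astrocytes, and Cdh8, Cdh9 and Cdh12 in hippocampal neurons.

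In PFC the orders of several members differed from those in Hip, among them Cdh4, Cdh7, Cdh9, Cdh10 and Cdh18, without a test between the regions. Cdh10 was at 519 ± 224 CPM in astrocytes, 516 ± 185 CPM in OPC, 480.0 ± 142 CPM in excitatory neurons and 479.7 ± 206 CPM in oligodendrocytes, with no step among them past the test. These means pool groups that differ. In GF mice astrocytes (803 CPM) were above excitatory neurons (663 CPM), and in SPF mice the means were 395 and 399.7 CPM. Cdh13 was at 673 ± 39.3 CPM in OPC and 559 ± 172 CPM in interneurons, with 659 and 357 CPM in GF mice but 694 and 728 CPM in SPF mice, and Cdh4 at 249 ± 65.0 CPM in astrocytes and 279 ± 123 CPM in mural cells, which are few and varied widely. Cdh9 in PFC was led by interneurons at 137 ± 33.7 CPM, above excitatory neurons (85.7 ± 29.3 CPM) in 9 of 9 mice, the opposite of its order in Hip. Cdh7 was likewise led by interneurons (117 ± 30.1 CPM against 74.5 ± 7.62 CPM in excitatory neurons, adjusted p = 0.03795). Cdh18 was led by excitatory neurons at 504 ± 171 CPM, above interneurons (242 ± 54.5 CPM) in all mice. Per 100 kb of gene, the highest levels in hippocampal excitatory neurons were those of Cdh9 (312 CPM per 100 kb), Cdh11 (278), Cdh10 (176) and Cdh8 (160.5). The longest genes, Cdh12, Cdh13 and Cdh18, came to 46.4, 22.7 and 22.2 CPM per 100 kb there. In cortical excitatory neurons Cdh10 (246 CPM per 100 kb) and Cdh11 (220.2) were highest on that scale and Cdh4 (19.8) lowest. This scale takes counts to grow with gene length. Whether introns were counted is not given, so orders of different genes on it depend on that assumption.

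Within neurons the members differed by field, layer and interneuron family. Dentate granule neurons had 827 ± 112 CPM of Cdh9, CA3 pyramidal neurons 443 ± 87.8 CPM and CA1 pyramidal neurons 81.0 ± 16.4 CPM. Cdh8 was high in each of the 3 fields, at 846 ± 121 CPM in dentate granule, 592 ± 112 CPM in CA3 and 503 ± 89.5 CPM in CA1 neurons. The reverse order was seen for Cdh6, at 93.3 ± 18.7 CPM in CA1 but 15.7 ± 7.64 CPM in CA3 and 6.43 ± 2.56 CPM in dentate granule neurons. Cdh10 and Cdh18 were also low in the dentate gyrus: Cdh10 was at 133 ± 19.6 CPM there against 434 ± 47.4 CPM in CA1, and Cdh18 at 76.5 ± 22.5 CPM against 251 ± 67.4 CPM. The fields were not compared by a test, and these ranges are given as levels.

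In PFC, layer 6 corticothalamic neurons, which project to the thalamus, had 1474 ± 552 CPM of Cdh18, against 529 ± 188 CPM in mid-layer Rorb neurons and 200.3 ± 46.1 CPM in upper-layer Cux2 neurons. The same layer 6 neurons had little Cdh8 (49.5 ± 15.6 CPM) and little Cdh7 (18.3 ± 2.51 CPM), and more Cdh9 (168 ± 50.7 CPM) than layer 5 Fezf2 neurons (25.1 ± 11.8 CPM). Layer 5 Fezf2 neurons were high in Cdh13 (754 ± 176 CPM) and mid-layer Rorb neurons in Cdh10 (789 ± 233 CPM). Among interneurons, the Lhx6 family, which holds the Pvalb and Sst cells, had 643 ± 107 CPM of Cdh13 in Hip and 832 ± 277 CPM in PFC. The Adarb2 family, which holds the Vip cells, had 186 ± 38.7 CPM and 178 ± 33.4 CPM of it. Cdh12 in Hip followed the same split, with 772 ± 212 CPM in the Lhx6 and 145 ± 50.3 CPM in the Adarb2 family, and Cdh10 the opposite one, with 188 ± 37.1 CPM and 592 ± 138 CPM.

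**Figure D2:**
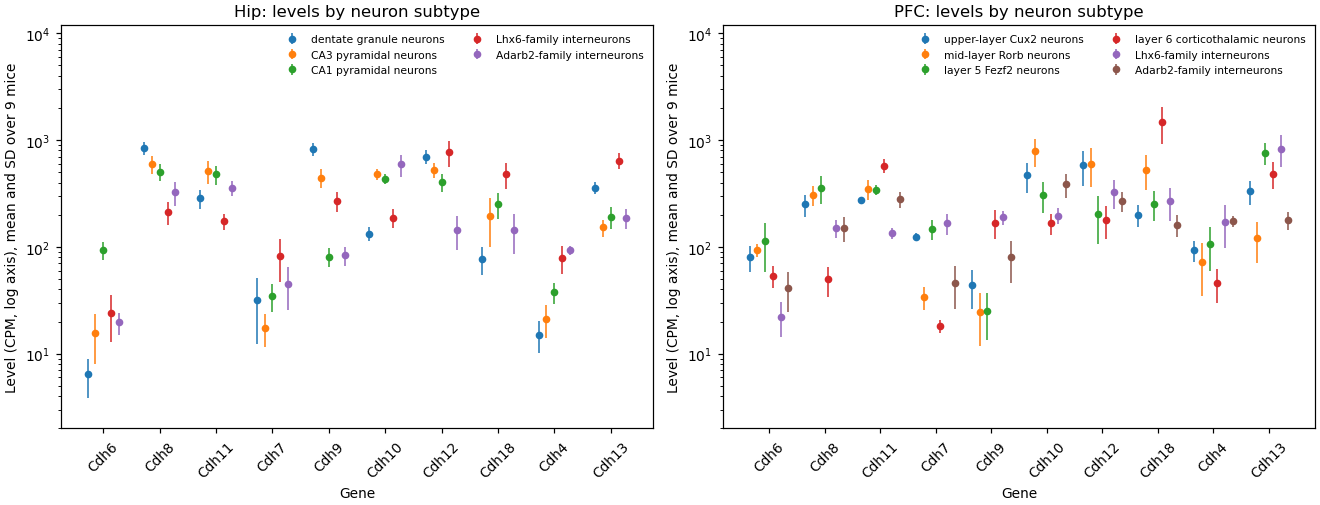
Level of each cadherin by neuron subtype in Hip and in PFC, with points at the mean CPM over 9 mice on a log axis and bars of 1 SD. Cdh18 is highest in layer 6 corticothalamic neurons of PFC, Cdh9 and Cdh8 in dentate granule neurons, and Cdh13 in Lhx6-family interneurons and layer 5 neurons of PFC.

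Between GF and SPF mice, 35 of the 57 tests of a member in 1 of 6 major types of Hip were past an adjusted p of 0.05, and in all 35 the GF mice were lower, with a median log2 fold change over the 57 tests of -0.61. Over all genes and the same types, 16.3% of tests were lower and 19.6% higher. In excitatory neurons 4 members fell (Cdh7, Cdh8, Cdh11, Cdh13) and 0 rose. Of all 18609 genes tested there 21.2% were lower and 25.3% higher in GF mice. Cdh8 was at 559, 454 and 482 CPM in the GF mice, 678, 707 and 694 CPM in the SPF mice and 638, 740.0 and 709 CPM in the CGF mice. The GF mice lay below all others without overlap, by a log2 fold change of -0.63 ± 0.10 (SE, adjusted p = 0.000673) against SPF mice in edgeR's quasi-likelihood test with Benjamini-Hochberg adjustment over all genes, as for every adjusted p on groups that follows. Cdh11 was at 322, 293 and 316 CPM in the GF mice, 484, 494 and 437 CPM in the SPF mice and 519.5, 512 and 460.2 CPM in the CGF mice. Again no GF mouse reached an SPF or CGF mouse, and the log2 fold change was -0.76 ± 0.09 (SE, adjusted p = 0.000179). Cdh13 was at 166, 224 and 218 CPM in the GF mice, 239, 226 and 265 CPM in the SPF mice and 265, 239 and 287 CPM in the CGF mice. Its GF mice came close to the SPF mice but did not overlap with them, at a log2 fold change of -0.42 ± 0.11 (SE, adjusted p = 0.00917). Cdh7 was at 24.1, 16.7 and 19.4 CPM in the GF mice, 27.2, 24.1 and 31.3 CPM in the SPF mice and 44.1, 48.0 and 38.5 CPM in the CGF mice. GF mouse 5 was level with SPF mouse 31 to the digits shown, and all CGF mice lay above all SPF mice. GF against SPF mice gave -0.61 ± 0.15 (SE, adjusted p = 0.00908) on the log2 scale.

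The members that did not pass in hippocampal excitatory neurons had log2 fold changes from -0.40 (Cdh6) to 0.16 (Cdh4). Among them Cdh9 was at 439, 382 and 356 CPM in the GF mice, 323, 419 and 346 CPM in the SPF mice and 464, 389.6 and 484 CPM in the CGF mice, with the groups overlapping, and Cdh12 and Cdh10 had log2 fold changes of -0.28 and -0.35. The median of the 10 members in this type was -0.37, that of all genes 0.039, and that of the 1957 genes at least as long as Cdh9, the shortest member, was -0.39, of which 57.1% were lower in GF mice. Long genes as a whole thus moved by as much as the members. With each library's dependence on gene length taken out, 15 of the 35 hippocampal calls were still past the threshold, 15 were no longer and 5 changed sign. Of the 4 falls in excitatory neurons, that of Cdh11 was still past it (-0.38), Cdh8 (-0.14) and Cdh7 (-0.23) were not, and Cdh13 turned to 0.17. With sums thinned to the lowest total of a type and region, 26 of the 35 were past the threshold and 8 were not. Scaling to total UMIs alone moved the median of all genes in this type by 0.156 on the log2 scale, and 30 of the 35 calls were then still past the threshold, with 0 turned in sign. With DESeq2 4 of the 35 were lost, without the 5% of nuclei with most UMIs 3, with the stricter assignment 2 and with no filter 1.

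In hippocampal interneurons 5 members fell (Cdh10, Cdh11, Cdh12, Cdh13, Cdh18) and 0 rose, where 17.7% of all genes were lower. With the dependence on gene length taken out, 0 of these 5 passed, with Cdh12 at -0.29 and Cdh11 at -0.11, and Cdh10 (0.056), Cdh13 (0.096) and Cdh18 (0.19) changed sign. Cdh18 (-0.27) also did not pass with thinned sums. Cdh12 moved most. It was at 423, 249 and 424 CPM in the GF mice, 617, 659 and 543 CPM in the SPF mice and 613, 607 and 594 CPM in the CGF mice, with all GF mice below the others and a log2 fold change of -0.85 ± 0.17 (SE, adjusted p = 0.00158). Cdh11 was at 211, 204 and 188 CPM in the GF mice and 267, 262 and 254 CPM in the SPF mice, also without overlap, at -0.49 ± 0.10 (SE, adjusted p = 0.00252). Cdh10, Cdh13 and Cdh18 had log2 fold changes of -0.35, -0.46 and -0.35. Cdh10 no longer passed without GF mouse 6 (-0.31), SPF mouse 30 (-0.31) or SPF mouse 31 (-0.30). Cdh13 did not without GF mouse 5 (-0.37), GF mouse 7 (-0.45) or any 1 SPF mouse (-0.48 to -0.46), nor Cdh18 without GF mouse 7 (-0.23), SPF mouse 30 (-0.36) or SPF mouse 32 (-0.32).

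By hippocampal field, dentate granule neurons had calls in both directions. Cdh9 was at 963, 886 and 844 CPM in the GF mice, 716, 733 and 645 CPM in the SPF mice and 981, 844 and 829.9 CPM in the CGF mice there. The SPF mice lay below all others, so the GF mice were higher than them, by 0.25 ± 0.09 (SE, adjusted p = 0.034). In the same neurons Cdh8 (-0.48 ± 0.08), Cdh11 (-0.77 ± 0.07), Cdh13 (-0.35 ± 0.10) and Cdh18 (-0.32 ± 0.10) fell. These are 1 member higher and 4 lower, against 25.7% of all genes higher and 22.2% lower. The rise of Cdh9 was lost with DESeq2 and with RLE factors (0.22 in both) and without GF mouse 5 (0.19), GF mouse 6 (0.26), SPF mouse 30 (0.27) or SPF mouse 32 (0.17). Once the dependence on gene length was taken out, Cdh8 (0.014), Cdh13 (0.24) and Cdh18 (0.26) changed sign and did not pass, and with scaling to total UMIs alone Cdh13 (-0.24) and Cdh18 (-0.20) did not. Cdh18 was also lost without GF mouse 6 (-0.28), GF mouse 7 (-0.26), SPF mouse 30 (-0.30) or SPF mouse 32 (-0.24), while Cdh11 passed in each alternative. In CA1 pyramidal neurons Cdh9 fell, with a change of -0.43 ± 0.13 (SE, adjusted p = 0.0235) on the log2 scale, and the difference from dentate granule neurons was not itself tested. That call was lost with the dependence on gene length taken out (-0.092), with total UMIs alone (-0.27), and without any 1 GF mouse, SPF mouse 30 or SPF mouse 32 (-0.45 to -0.39). Cdh7, Cdh8 and Cdh11 fell in CA1 as well, which makes 4 members against 19.7% of genes, and the same 3 fell in CA3, against 19.6%. Without the dependence on gene length Cdh7 (-0.34) and Cdh8 (-0.22) did not pass in CA1, nor Cdh8 (-0.17) in CA3. The largest of these changes was that of Cdh7 in CA3, -1.17 ± 0.20, from a mean over mice of 17.5 ± 6.03 CPM.

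**Figure D3:**
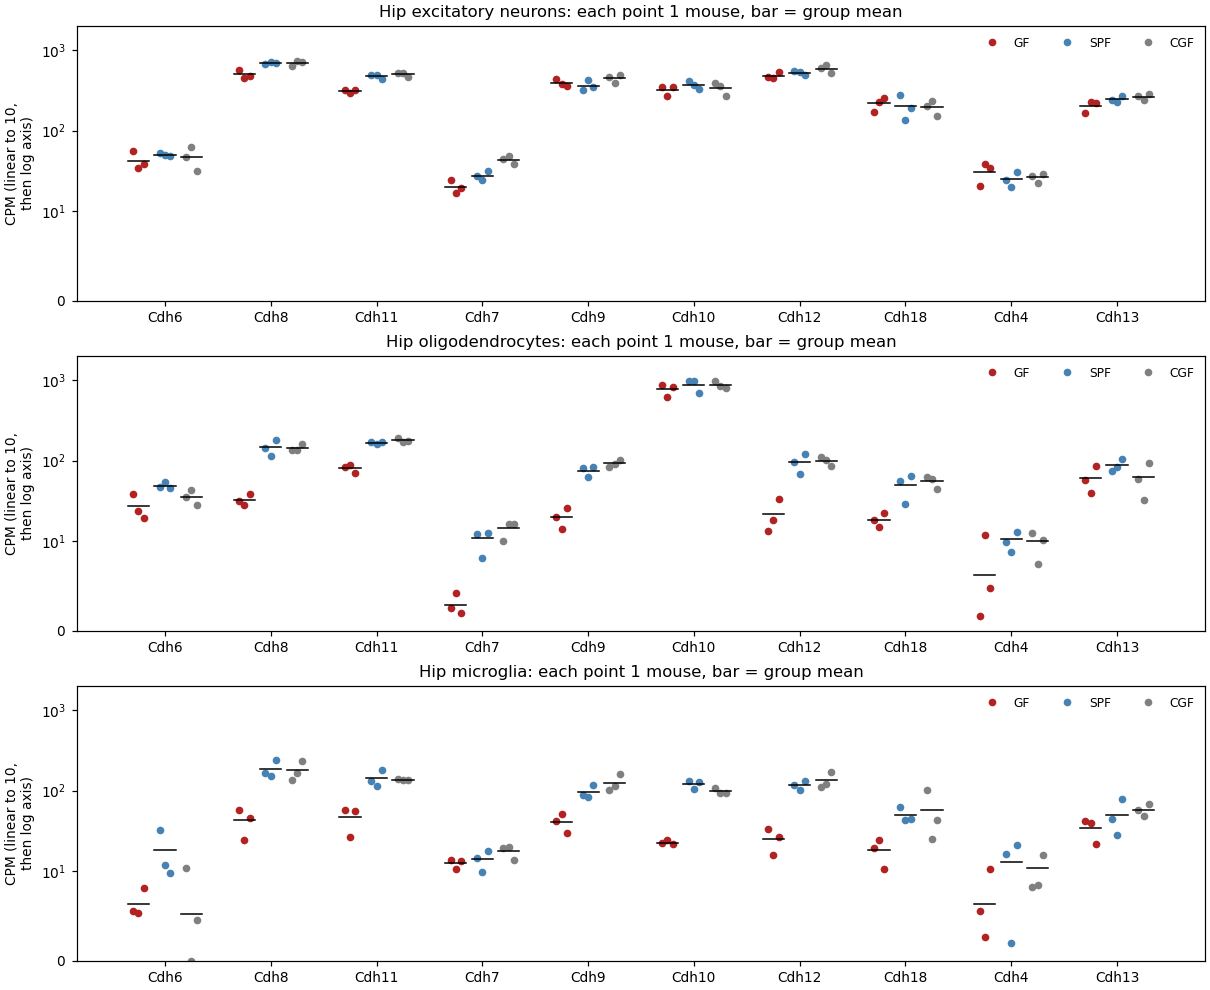
CPM of each cadherin in excitatory neurons, oligodendrocytes and microglia of Hip, with 1 point per mouse and a line at the mean of each group of 3, on an axis that is linear up to 10 CPM and logarithmic above. Cdh8 and Cdh11 have all GF mice below the SPF mice in the 3 types, and Cdh12 in both glial types.

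In hippocampal microglia, oligodendrocytes and astrocytes the median log2 fold change of the members was larger in size than in excitatory neurons, a difference that was not itself tested. Microglia had 6 members lower in GF mice (Cdh8, Cdh9, Cdh10, Cdh11, Cdh12, Cdh18) among the 7 tested there, against 12.4% of all genes lower and 15.3% higher. The other 3, Cdh4, Cdh6 and Cdh7, had too few counts to be tested in microglia. The study had already named Cdh8, Cdh9, Cdh11 and Cdh12 as changed in hippocampal microglia in these data, so this count is not independent of its results. Cdh8 in microglia was at 58.1, 24.1 and 45.8 CPM in the GF mice, 163, 151 and 238 CPM in the SPF mice and 137, 167 and 229.7 CPM in the CGF mice. The GF mice had less than any other mouse, at a log2 fold change of -2.10 ± 0.29 (SE, adjusted p = 1.76e-05). Cdh10, higher in astrocytes and oligodendrocytes than in microglia, was at 22.1, 24.1 and 21.5 CPM in the GF mice, 130.4, 105 and 127 CPM in the SPF mice and 107, 93.1 and 94.2 CPM in the CGF mice in microglia, again without overlap, at -2.39 ± 0.26 (SE, adjusted p = 7.98e-07). Cdh12 (-2.20 ± 0.29), Cdh11 (-1.58 ± 0.26), Cdh18 (-1.44 ± 0.44) and Cdh9 (-1.23 ± 0.28) fell as well. These microglial values rest on few UMIs. Cdh8 had 21, 9 and 17 UMIs in the GF mice and 100, 76 and 146 in the SPF mice. Cdh18 had 7, 9 and 4 against 38, 22 and 27, and Cdh10 had 349 over all 9 mice. The median log2 fold change of the 7 members was -1.58, that of all genes -0.0060 and that of genes at least as long as Cdh9 -0.52, of which 43.5% were lower. Cdh18 no longer passed without GF mouse 7 (-1.18) or SPF mouse 30 (-1.27). With the dependence on gene length taken out, Cdh12 (-0.70) and Cdh18 (-0.074) did not pass, and with thinned sums Cdh18 (-1.13) did not.

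Oligodendrocytes had 7 members lower (Cdh6, Cdh7, Cdh8, Cdh9, Cdh11, Cdh12, Cdh18), against 15.7% of genes, with a median over the 10 members of -1.19. Cdh12 there was at 13.3, 18.5 and 33.7 CPM in the GF mice, 97.3, 68.6 and 119.9 CPM in the SPF mice and 109, 103 and 84.9 CPM in the CGF mice, at a log2 fold change of -2.09 ± 0.26 (SE, adjusted p = 1.57e-05), and the GF mice stood apart from all 6 others. Astrocytes had 8 lower, all but Cdh4 and Cdh10, against 15.8% of genes, with a median of -0.90. Cdh11 in astrocytes was at 121, 131 and 119 CPM in the GF mice, 229, 223 and 217 CPM in the SPF mice and 234, 235 and 212 CPM in the CGF mice, and its GF mice lay below all others, at -0.83 ± 0.11 (SE, adjusted p = 8.19e-05). OPC had 5 lower (Cdh7, Cdh8, Cdh9, Cdh11, Cdh12), against 9.41% of genes, and the median over members was -0.50. The largest of them was Cdh7, at -1.56 ± 0.56, with a mean over all 9 mice of 10.3 ± 4.99 CPM. It rested on 2, 2 and 2 UMIs in the GF mice and 12, 9 and 7 UMIs in the SPF mice. That call was lost with DESeq2 (-1.59), no filter (-1.63), the stricter assignment (-1.52) and total UMIs alone (-1.48). Several calls were lost without a single mouse, with the log2 fold change then given in brackets. In oligodendrocytes this held for Cdh6 without GF mouse 6 (-0.66) or 7 (-0.59). In astrocytes it held for Cdh6 without GF mouse 5 (-0.42) or 6 (-0.49), CGF mouse 18 (-0.62) or any 1 SPF mouse (-0.63 to -0.59), for Cdh7 without any 1 GF mouse (-1.40 to -0.87) or SPF mouse 30 (-1.13) or 32 (-1.04), and for Cdh18 without GF mouse 5 (-0.82) or SPF mouse 32 (-0.74). In OPC it held for Cdh12 without GF mouse 5 (-0.64) or 6 (-0.79), for Cdh9 without GF mouse 5 (-0.77) or 6 (-0.93) or SPF mouse 32 (-0.74), and for Cdh7 without any 1 GF mouse, SPF mouse 31 or CGF mouse 17 or 18 (-1.66 to -1.50). With the dependence on gene length taken out, Cdh13 in astrocytes turned to 0.13. Calls also lost in that setting were Cdh6 (-0.23), Cdh7 (-0.77) and Cdh18 (-0.17) in astrocytes, Cdh6 (-0.34) and Cdh18 (-0.34) in oligodendrocytes, and Cdh7 (-1.25), Cdh9 (-0.65), Cdh11 (-0.24) and Cdh12 (-0.35) in OPC. With thinned sums those lost were Cdh6 (-0.59) and Cdh7 (-1.14) in astrocytes, Cdh6 in oligodendrocytes (-0.57), and Cdh9 (-0.81), Cdh11 (-0.40) and Cdh12 (-0.85) in OPC.

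The glial changes were split by whether the SPF level of a member in the glial type was above or below that in excitatory neurons, which does not say which type makes the RNA. In 7 pairs of a member and a glial type the SPF level was above that of excitatory neurons (Cdh10 in astrocytes, oligodendrocytes and OPC, Cdh4 in astrocytes and OPC, Cdh6 and Cdh13 in OPC). Of these 7 pairs 0 passed the test, and their log2 fold changes lay between -0.38 and -0.080. Of the 30 pairs with an SPF level below that of excitatory neurons 26 were lower, with a median of -1.27 and a range of -2.39 to -0.43. The shares below 100% ran high for some, such as Cdh18 in OPC, at 95.7% of the excitatory level in SPF mice, which did not pass at -0.43 ± 0.16 (SE, adjusted p = 0.0531), and Cdh11 in OPC, at 57.1%, which did. Cdh10, which fell in microglia, was at 839, 803 and 669 CPM in the GF mice, 936, 917 and 781 CPM in the SPF mice and 969, 959 and 811 CPM in the CGF mice in astrocytes, where the groups overlapped and the log2 fold change of -0.17 ± 0.13 (SE, adjusted p = 0.332) did not pass. Cdh13 in OPC was at 709.7, 683 and 774 CPM in the GF mice, 693, 723 and 769 CPM in the SPF mice and 812, 705 and 695 CPM in the CGF mice, also with overlap, at -0.08 ± 0.11 (SE, adjusted p = 0.674).

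Neuronal genes in glial droplets moved in the same direction. Whether free RNA, mixed droplets or transcripts of the glia themselves gave these counts was not tested. The summed level of 12 neuronal genes (Syt1, Snap25, Grin2b and others) in hippocampal microglia was 10.4% to 10.8% of that in excitatory neurons in the GF mice, 19.1% to 30.4% in the SPF mice and 19.99% to 24.2% in the CGF mice. The share differed widely between single genes of the 12. In GF mice it went from 3.39% to 70.6%, around a median gene of 11.3%. In SPF mice it went from 12.97% to 98.7%, around a median gene of 20.6%. In microglia 11 of these 12 genes were lower in GF mice (median log2 fold change -1.33), in oligodendrocytes 12 (median -1.09), in astrocytes 11 (median -0.98) and in OPC 10 (median -0.68). They were also lower in neurons themselves, 9 of the 12 in excitatory neurons (median -0.33) and 6 in interneurons (median -0.29). In SPF mice the microglial level of Cdh8 was 26.5% of that in excitatory neurons and that of Cdh12 22.6%, and in GF mice 8.56% and 5.3%. When only the glial nuclei below the median neuronal RNA of their library were kept, 19 of the 26 glial calls were still past the threshold, 4 were no longer (Cdh6 and Cdh13 in astrocytes, Cdh11 in OPC, Cdh18 in microglia) and 3 could not be tested. This cut was made within each library and was not set to bring the groups to a like level of neuronal RNA. How much of the glial differences is RNA from neurons was not tested.

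**Figure D4:**
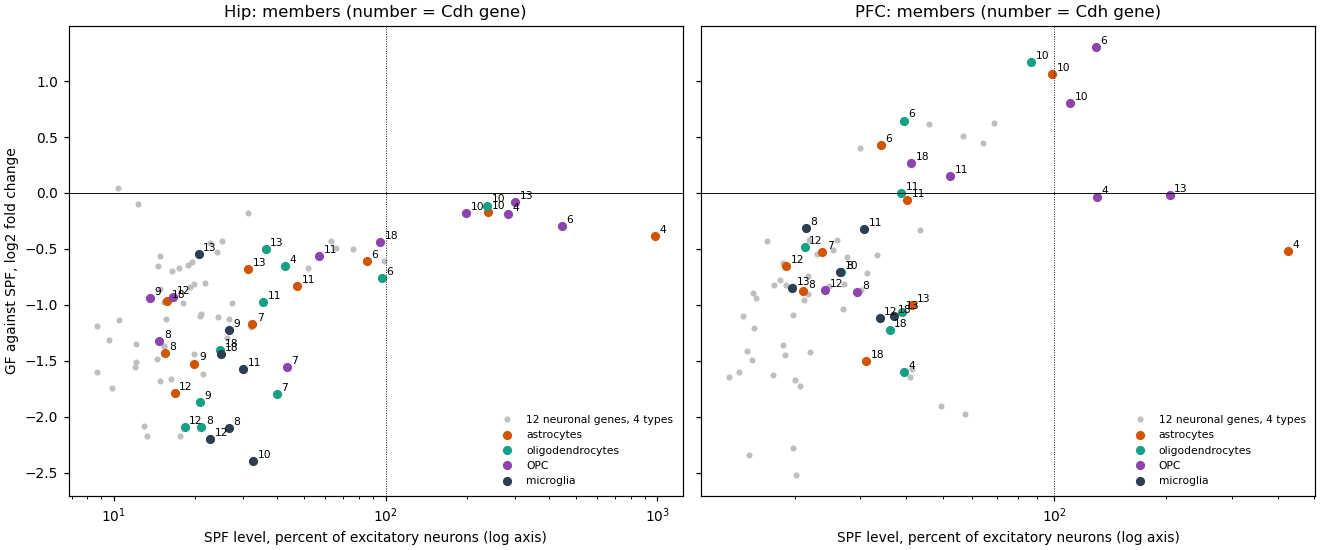
Log2 fold change between GF and SPF mice of each member in each glial type, against its SPF level in that type as a percent of the level in excitatory neurons (log axis), for Hip and PFC. Grey points are the 12 neuronal genes in the same types, and numbers name the Cdh gene. In Hip the 7 pairs above 100% sit between -0.38 and -0.080, and the pairs below it reach -2.39.

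The comparison of GF with SPF mice in PFC gave changes in both directions, with 17 of 51 tests higher and 13 lower, against 25.7% and 25.1% of tests of all genes, and a median of -0.0024, and all of these comparisons share the difference in depth between GF and SPF libraries. In excitatory neurons 8 members rose (all but Cdh7 and Cdh13) and 0 fell, where 32% of all genes were higher and 31% lower in GF mice. The members' median was 0.62, that of all genes 0.0074 and that of genes at least as long as Cdh9 0.078. Cdh12 was at 581, 802 and 733 CPM in the GF mice, 304, 352 and 363 CPM in the SPF mice and 409, 410.2 and 374 CPM in the CGF mice. All GF mice lay above all others, at a log2 fold change of 1.20 ± 0.14 (SE, adjusted p = 1.62e-05). Cdh9 was at 138, 103 and 125 CPM in the GF mice, 62.8, 60.8 and 68.5 CPM in the SPF mice and 77.5, 75.6 and 59.7 CPM in the CGF mice, with the same separation, at 1.07 ± 0.14 (SE, adjusted p = 2.86e-05). Cdh18 (0.99 ± 0.20), Cdh10 (0.87 ± 0.14), Cdh6 (0.63 ± 0.16) and Cdh8 (0.60 ± 0.12) rose as well. Cdh10 was narrow within groups, with 664, 668 and 656 CPM in the GF mice and 382, 402 and 415 CPM in the SPF mice. The rises of Cdh11 and Cdh4 were smaller, 0.41 and 0.47. That of Cdh4 no longer passed without GF mouse 7 (0.28), SPF mouse 30 (0.43) or SPF mouse 31 (0.37), or with total UMIs alone (0.33). Cdh4 was at 83.0, 76.2 and 116 CPM in the GF mice and 71.4, 63.7 and 83.5 CPM in the SPF mice, with overlap. The CGF mice had the highest mean, with 107, 93.4 and 121 CPM. With the summed counts of each type thinned to the lowest total of a mouse, 28 of the 30 calls of PFC were still past the threshold and the other 2 could not be tested. With the stricter assignment 3 of the 30 were lost, with DESeq2 2, with total UMIs alone 1 and with no filter 1. Thinning matched the totals and not the UMIs per nucleus, whose medians in excitatory neurons were 9186 to 9909 in GF mice and 3873 to 4159 in SPF mice.

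The rise was seen in each cortical layer class tested. Libraries held 73 to 537 mid-layer Rorb nuclei and 34 to 139 layer 5 Fezf2 nuclei. In Rorb neurons Cdh8 had 1677, 2837 and 1999 UMIs (337, 412 and 371 CPM) in the GF mice. The SPF mice had 97, 293 and 240 UMIs of it (200, 304 and 327 CPM). In layer 5 neurons it had 891, 1225 and 829 UMIs (502, 479 and 414 CPM) against 127, 105 and 125 UMIs (357, 434 and 326 CPM). The summed counts of both classes were thus much larger in GF than in SPF mice. Whether the nuclei assigned to a class were alike between groups was not tested. Upper-layer Cux2 neurons had 6 members higher (Cdh6, Cdh8, Cdh9, Cdh10, Cdh12, Cdh18), against 30.2% of genes, and mid-layer Rorb neurons 8, against 22.3%. Layer 5 Fezf2 neurons also had 6 higher, against 19.9%, and layer 6 corticothalamic neurons 7, against 27.7%. Cdh18, a leading gene of these layer 6 neurons, was at 2267, 2149 and 2086 CPM in the GF mice, 878, 1366 and 1190 CPM in the SPF mice and 1101, 1379 and 852 CPM in the CGF mice. The GF mice lay well above the others, at 1.07 ± 0.19 (SE, adjusted p = 0.000208). Cdh9 rose by 1.46 in Rorb neurons, the largest value of a member in a cortical excitatory class, and by 0.93 in layer 6. The value in Rorb neurons rested on 213, 224 and 225 UMIs in the GF mice and 7, 12 and 16 UMIs in the SPF mice. The calls of upper-layer neurons passed in each alternative. Once the dependence on gene length was taken out, Cdh4 (0.58) and Cdh6 (0.35) in Rorb neurons and Cdh8 (0.24), Cdh9 (0.89) and Cdh18 (0.39) in layer 5 did not pass. With the stricter assignment Cdh4 (0.43) and Cdh6 (0.14) in Rorb neurons and Cdh8 (0.23) and Cdh18 (0.66) in layer 5 did not, and with thinned sums Cdh4 in Rorb neurons (0.75) and Cdh6 in layer 6 (0.47) did not. With total UMIs alone Cdh4 (0.50) and Cdh6 (0.23) in Rorb neurons, Cdh8 (0.33) and Cdh9 (0.90) in layer 5, and Cdh4 (0.52) and Cdh6 (0.43) in layer 6 did not. Single mice mattered as well. In Rorb neurons Cdh4 was lost without GF mouse 7 (0.56) or SPF mouse 30 (0.65) or 31 (0.60), and Cdh6 without GF mouse 6 or 7 or SPF mouse 31 or 32 (0.38 to 0.46). In layer 5 Cdh6 was lost without SPF mouse 30 (0.66), and Cdh9 with DESeq2 (1.16) and without GF mouse 7 (0.87) or SPF mouse 31 (0.91) or 32 (1.14). In layer 6 Cdh4 was lost without GF mouse 7 (0.39) or SPF mouse 31 (0.61), and Cdh6 without GF mouse 5 or 7 or SPF mouse 30 or 31 (0.41 to 0.51).

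In cortical interneurons 5 members rose (Cdh6, Cdh9, Cdh10, Cdh12, Cdh18), against 27.9% of all genes, and 2 fell (Cdh4 and Cdh13), against 26.1%. Cdh13, the T-cadherin gene, was at 375, 366 and 330.0 CPM in the GF mice, 729, 781 and 674 CPM in the SPF mice and 495, 683 and 600.0 CPM in the CGF mice. All GF mice lay below the others, at a log2 fold change of -0.97 ± 0.13 (SE, adjusted p = 1.66e-05), with the CGF mice reaching from between the groups into the range of the SPF mice. In Lhx6-family interneurons Cdh13 had its highest mean over all mice. This did not hold in GF mice, where OPC (659 CPM) were above that family (479 CPM). In the family Cdh13 was at 500.1, 492 and 446 CPM in the GF mice, 1089, 1171 and 981 CPM in the SPF mice and 914, 967 and 931 CPM in the CGF mice, at a log2 fold change of -1.08 ± 0.10 (SE, adjusted p = 1.14e-08). Cdh4 in the same family was at 89.5, 69.1 and 96.4 CPM in the GF mice, 253, 172 and 163 CPM in the SPF mice and 233, 205 and 261 CPM in the CGF mice, also without overlap, at -1.11 ± 0.15 (SE, adjusted p = 1.44e-06). These 2 were the members lower in that family, against 26.9% of genes, and 5 were higher (Cdh6, Cdh9, Cdh10, Cdh12, Cdh18), against 27.2%. Cdh13, Cdh4, Cdh12 and Cdh18 passed in that family in each alternative. Cdh6 was lost with the stricter assignment (0.65), with thinned sums (0.56) and without GF mouse 6 (0.49) or SPF mouse 31 (0.64), and Cdh10 with total UMIs alone (0.28) and without GF mouse 7 (0.26) or SPF mouse 31 (0.31). Cdh9 was lost with the stricter assignment (0.17), thinned sums (0.25), total UMIs alone (0.25), and without GF mouse 5 or 6 or SPF mouse 30 or 31 (0.27 to 0.34). In the Adarb2 family Cdh13 and Cdh4 had log2 fold changes of -0.37 and 0.06 and did not pass. Cdh12 in all interneurons was at 393, 392 and 389 CPM in the GF mice, 272, 259.6 and 269.9 CPM in the SPF mice and 190.5, 262 and 213 CPM in the CGF mice, with the GF mice above, at 0.61 ± 0.13 (SE, adjusted p = 0.000786). In all interneurons Cdh4 no longer passed without GF mouse 5 (-0.45), GF mouse 6 (-0.40) or SPF mouse 30 (-0.34), nor Cdh9 without SPF mouse 30 (0.48). Cdh4 also no longer passed with the dependence on gene length taken out (-0.33).

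In cortical glia Cdh10 rose in astrocytes, oligodendrocytes and OPC and Cdh6 in OPC, while other members fell. Cdh10 in astrocytes was at 769, 931 and 708 CPM in the GF mice, 369, 421 and 394 CPM in the SPF mice and 356, 423 and 299 CPM in the CGF mice. Each GF mouse had far more than any other, at 1.07 ± 0.16 (SE, adjusted p = 6.95e-06). It was the 1 member higher in astrocytes, against 23.9% of genes, and in oligodendrocytes, at 1.17 ± 0.16, against 20.7%. In OPC Cdh10 (0.80 ± 0.16) and Cdh6 rose, 2 members against 17.8% of genes. Cdh6 in OPC, the type in which it was highest, was at 228, 221 and 213 CPM in the GF mice, 86.2, 103 and 89.8 CPM in the SPF mice and 115, 120.2 and 61.8 CPM in the CGF mice, without overlap and at 1.30 ± 0.23 (SE, adjusted p = 2.08e-05). Cdh13 in OPC, the type with the highest mean over all mice but not in SPF mice, was at 705, 633 and 640.4 CPM in the GF mice and 677, 714 and 691 CPM in the SPF mice, with overlap, and did not pass.

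The members lower in cortical glia numbered 5 in astrocytes (Cdh4, Cdh8, Cdh12, Cdh13, Cdh18), against 23.5% of genes, and 3 in oligodendrocytes (Cdh4, Cdh13, Cdh18), against 20.8%. OPC had 1 (Cdh12), against 17.9%, and microglia 2 of 6 tested (Cdh12 and Cdh18), against 19.5%, with 0 higher where 17.5% of genes were. Cdh18 in astrocytes was at 38.7, 35.2 and 50.2 CPM in the GF mice, 103, 142 and 122 CPM in the SPF mice and 82.6, 112 and 109 CPM in the CGF mice, with the GF mice apart, at -1.51 ± 0.19 (SE, adjusted p = 8.12e-07), although it rose in cortical excitatory neurons. Without a single mouse the following no longer passed. They were, in astrocytes, Cdh4 without GF mouse 6 (-0.41) or 7 (-0.44) or SPF mouse 31 (-0.34), Cdh8 without SPF mouse 31 (-0.62), and Cdh12 without GF mouse 5 (-0.40) or 7 (-0.72) or SPF mouse 31 (-0.34). In oligodendrocytes it was Cdh4 without GF mouse 7 (-1.10) or SPF mouse 30 (-1.35), and in OPC Cdh12 without GF mouse 5 (-0.70) or SPF mouse 30 (-0.75) or 32 (-0.87). In microglia they were Cdh12 without GF mouse 5 (-0.79) or SPF mouse 31 (-1.06) or 32 (-1.07), and Cdh18 without SPF mouse 31 (-0.92). With the dependence on gene length taken out, the calls lost were Cdh4 (-0.16), Cdh8 (-0.56) and Cdh12 (-0.17) in astrocytes, Cdh4 (-1.20) and Cdh13 (-0.52) in oligodendrocytes, and Cdh12 (-0.17) and Cdh18 (-0.23) in microglia. In PFC 5 pairs of a member and a glial type had an SPF level above that of excitatory neurons, and of these 1 was lower (Cdh4 in astrocytes) and 2 higher (Cdh6 and Cdh10 in OPC), while of the 26 pairs below it 10 were lower and 2 higher. The 12 neuronal genes stood in microglia of PFC at 11.4% to 16.1% of the level in excitatory neurons in GF mice, 24.2% to 30.7% in SPF mice and 23.3% to 32.2% in CGF mice. In these microglia 11 of the 12 were lower and 1 higher in GF mice. In cortical astrocytes the summed share was 8.64% to 10.4% (GF), 17.7% to 23.7% (SPF) and 17.5% to 19.1% (CGF), with 11 of the 12 genes lower and 1 higher. In oligodendrocytes it was 10.4% to 14.2% (GF), 25.9% to 28.5% (SPF) and 21.8% to 27.8% (CGF), with 9 lower and 1 higher. In OPC it was 10.6% to 14.2% (GF), 20.5% to 24.3% (SPF) and 18.6% to 21.0% (CGF), with 10 lower and 1 higher. In cortical excitatory neurons 2 of the 12 genes were lower and 6 higher, and in interneurons 5 were lower and 3 higher. Among glial nuclei below the median neuronal RNA of their library, 7 of the 11 lower calls still passed, Cdh12 in astrocytes did not (-0.68), and 3 could not be tested. Here too the cut within libraries was not set to match the groups in neuronal RNA. How much of the lower cadherin values in cortical glia is RNA from neurons was not tested.

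The difference between GF and SPF mice was itself compared between regions as an interaction, Hip minus PFC. Of 59 tests of a member in a type, 28 passed and all 28 were negative, with a median over the 59 tests of -0.92. In excitatory neurons 8 members passed (all but Cdh4 and Cdh13), where 52.3% of all genes did, and in interneurons 6 (Cdh6, Cdh9, Cdh10, Cdh11, Cdh12, Cdh18), where 40.7% did. In the 4 glial types together 14 passed, where 17.2% of the tests of all genes did. These shares of genes are large themselves, and the PFC arm of the difference carries the unequal depth. The Hip arm is unequal the other way in UMIs per nucleus. Medians in its excitatory neurons were 5844.5 to 6726 in GF mice and 8463 to 9513.5 in SPF mice. Cdh12 in excitatory neurons had the largest neuronal difference, -1.54 ± 0.19 (SE, adjusted p = 3.45e-06), made of -0.28 in Hip, which did not pass, and 1.20 in PFC. For Cdh8 it was -1.29 ± 0.16 (SE, adjusted p = 2.76e-06), and this member fell in Hip and rose in PFC. Cdh10 passed in all 6 types, from -0.92 in interneurons to -1.66 in microglia, and so did Cdh11, from -0.70 in OPC to -1.23 in excitatory neurons. With the dependence on gene length taken out, 8 of the 28 no longer passed, Cdh7 (-0.37) and Cdh18 (-0.53) in excitatory neurons, Cdh6 (-0.77) and Cdh9 (-0.32) in interneurons, Cdh12 in astrocytes (-0.83), Cdh11 in OPC (-0.50), and Cdh8 (-1.50) and Cdh11 (-1.08) in microglia. With thinned sums 6 did not, Cdh12 in astrocytes (-0.97), Cdh6 in oligodendrocytes (-1.48), Cdh11 in OPC (-0.20), and Cdh8 (-2.46), Cdh10 (-1.75) and Cdh11 (-0.73) in microglia. Among glial nuclei below the median neuronal RNA of their library 6 did not, Cdh11 in astrocytes (-0.46), Cdh12 in oligodendrocytes (-1.06), Cdh11 in OPC (-0.51), and Cdh8 (-1.45), Cdh10 (-1.03) and Cdh11 (-1.02) in microglia. That cut was made within each library and was not set to match the groups. Scaled by total UMIs alone 5 of the 28 did not pass, Cdh7 (-0.24) and Cdh18 (-0.73) in excitatory neurons, Cdh6 (-0.83) and Cdh9 (-0.38) in interneurons, and Cdh11 in OPC (-0.58). With DESeq2 4 did not, without the 5% of nuclei with most UMIs 4, with the stricter assignment 3 and with RLE factors 1. With the mouse as replicate block Cdh9 in interneurons (-0.55) did not. The 12 calls lost in at least 1 alternative are all among those named here.

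**Figure D5:**
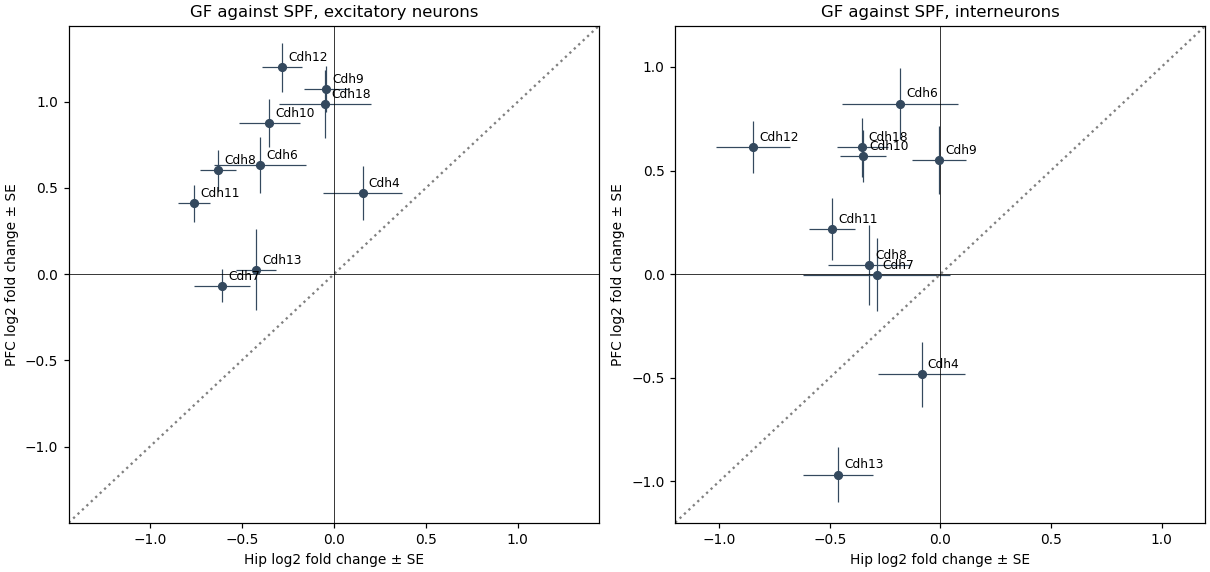
Log2 fold change between GF and SPF mice of each member in PFC against that in Hip, for excitatory neurons and for interneurons, with bars of 1 SE and a dotted line where both are equal. Most points lie above the line, as do Cdh12 and Cdh10 in both panels, and Cdh4 and Cdh13 of interneurons lie below it. Each panel has its own axis range.

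The regions were compared within GF mice, whose libraries were closest in depth between regions. Each GF library of PFC was still deeper than each of Hip, with 59126586 to 71463928 against 49067853 to 56240654 UMIs and medians of 6721 to 7338.5 against 4593 to 5809.5 UMIs per nucleus, so region and depth cannot be told apart. Over the 6 types 4 tests of members were higher in Hip and 16 lower among 54, with a median of -0.30. In excitatory neurons Cdh9 and Cdh8 were higher in Hip, by 1.54 ± 0.12 (SE, adjusted p = 3.41e-05) and 0.65 ± 0.10 (SE, adjusted p = 0.00105). These 2 members compare with 19.3% of genes higher, and the other 8 members were lower in Hip, against 18.9% of genes. The largest of these were Cdh7 (-1.90 ± 0.13), Cdh18 (-1.84 ± 0.15) and Cdh4 (-1.72 ± 0.23). In interneurons Cdh9 was higher in Hip (0.36 ± 0.09), 1 member against 2.28% of genes, and Cdh6 and Cdh7 lower (-0.83 ± 0.19 and -1.17 ± 0.16), 2 members against 2.12%. In the 4 glial types together 7 tests of members passed, against 4.64% of tests of genes. They were Cdh9 (higher), Cdh7 and Cdh18 in astrocytes, Cdh12 and Cdh18 in oligodendrocytes, and Cdh10 and Cdh18 in microglia. Without GF mouse 7, 12 of the tests passed, and those lost were Cdh13 in excitatory neurons (-0.71), Cdh6 (-0.85) and Cdh9 (0.31) in interneurons, Cdh7 (-2.06) and Cdh9 (1.29) in astrocytes, Cdh12 in oligodendrocytes (-1.46), and Cdh10 (-1.38) and Cdh18 (-1.44) in microglia. Without GF mouse 5, Cdh13 in excitatory neurons (-0.55) and Cdh6 (-0.69) and Cdh9 (0.38) in interneurons were lost, and without GF mouse 6, Cdh9 in interneurons (0.40), Cdh7 (-1.18) and Cdh9 (1.09) in astrocytes and Cdh12 in oligodendrocytes (-1.02). With sums thinned to the lowest total, Cdh9 in interneurons (0.31), Cdh12 in oligodendrocytes (-1.35) and Cdh10 (-1.81) and Cdh18 (-1.97) in microglia did not pass, and with the dependence on gene length taken out, Cdh13 in excitatory neurons (-0.55) and Cdh12 in oligodendrocytes (-0.82) did not. With the mouse as a replicate block 24 passed, and Cdh9 in interneurons no longer did (adjusted p = 0.05).

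The CGF mice were set against the SPF mice in the same way. Between them 0 of 57 tests in Hip and 0 of 51 in PFC passed edgeR's test, against 0.282% and 0.214% of the tests of all genes. An unadjusted p under 0.05 was seen in 7 and 8 of these tests. The share of all genes at that unadjusted threshold is not given here, so these counts cannot be read as an excess. With DESeq2 1 passed in Hip (Cdh7 in excitatory neurons, in which all CGF mice were above all SPF mice) and 0 in PFC. Without CGF mouse 18, 3 passed in interneurons of PFC, where Cdh7, Cdh8 and Cdh12 were lower in CGF mice. For these alternatives the share of all genes is not given either. Within the dentate gyrus 3 members were higher in CGF than in SPF mice, where 1.08% of genes were. Cdh7 in dentate granule neurons was at 21.1, 15.1 and 15.5 CPM in the GF mice, 19.1, 15.2 and 29.3 CPM in the SPF mice and 60.1, 58.8 and 50.4 CPM in the CGF mice. All CGF mice had more than any other mouse, at 1.48 ± 0.20 (SE, adjusted p = 0.00724) against SPF mice. Cdh18 was at 65.5, 55.1 and 52.7 CPM in the GF mice, 68.0, 56.9 and 75.4 CPM in the SPF mice and 104, 106 and 105 CPM in the CGF mice, with the same separation, at 0.72 ± 0.10 (SE, adjusted p = 0.00782). Cdh9 in these neurons, whose values are given above, had a log2 fold change of 0.40 ± 0.09 (SE, adjusted p = 0.0439) between CGF and SPF mice, a call lost with RLE factors (0.40), with total UMIs alone (0.34), and without any 1 CGF or SPF mouse or GF mouse 6 or 7 (0.33 to 0.46). Those of Cdh7 and Cdh18 passed in each alternative.

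Between GF and CGF mice, a comparison that shares its GF mice with that of GF and SPF mice, 36 of 57 tests in Hip passed and all were lower in GF mice, where 16.6% of tests of all genes were lower and 19.9% higher. With the dependence on gene length taken out, 15 of the 36 no longer passed and 5 changed sign. In PFC 19 of 51 were higher and 13 lower, against 25.6% and 24.7%, and 7 of these calls were lost in that setting. Cdh7 in excitatory neurons of Hip had a log2 fold change of -1.31 ± 0.15 (SE, adjusted p = 0.000144) between GF and CGF mice, beside -0.61 between GF and SPF mice. For Cdh12 in hippocampal interneurons, lost in both comparisons with the dependence on gene length taken out, the 2 values were -0.90 and -0.85. For Cdh4 in Lhx6-family interneurons of PFC they were -1.36 and -1.11, and for Cdh13 there -0.88 and -1.08. For Cdh10 in astrocytes of PFC they were 1.18 and 1.07.

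Of 9 other classical cadherins and 17 catenins and adhesion partners, 43 of 119 tests in the 6 major types of Hip passed between GF and SPF mice, 9 of them higher and 34 lower, where 19.6% of tests of all genes were higher and 16.3% lower. In PFC 51 of 101 passed, 37 higher and 14 lower, where 25.7% and 25.1% were. The catenins and partners in hippocampal excitatory neurons numbered 2 higher and 6 lower of 17, with a median of -0.12, and the other cadherins 0 higher and 3 lower of 7, beside 25.3% and 21.2% of all genes. The largest falls there were those of Cdh5, the cadherin of endothelial cells, at -2.0 ± 0.72 from an SPF level of 0.563 ± 0.218 CPM, and of Cdh19, at -1.52 ± 0.30 from 2.10 ± 0.387 CPM. Both genes lie near 0 in neurons. The largest rises were those of Ctnna3, an alpha-catenin, at 0.55 ± 0.15 from 174 ± 3.72 CPM, and Ptpn1, a tyrosine phosphatase, at 0.31 ± 0.060. In PFC the excitatory neurons had 7 catenins and partners higher and 3 lower of 17, beside 32% and 31% of all genes, with Ctnna3 at 493 ± 50.3 CPM in GF and 58.4 ± 4.61 CPM in SPF mice, a log2 fold change of 3.22 ± 0.11 (adjusted p = 1.78e-09). Ctnna2, the alpha-catenin of neurons, rose there by 0.67 ± 0.16, and Cdh19 (-1.63 ± 0.26) and Nectin3 (-0.54 ± 0.13) fell most. In microglia Magi2 and Ctnnd2, genes that neurons express strongly, fell most in both regions, with log2 fold changes of -2.51 in Hip and -1.51 in PFC for Magi2, and Ctnnd2 had log2 fold changes of -1.83 and -1.2. Ptpn1 rose in microglia of both, by 0.80 and 0.60.

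The genes whose levels ran most alike to each member were sought over 30 mean profiles of types and subtypes of both regions, among 12851 genes, as Pearson's r of log2(CPM + 1). Profiles of a type share libraries and free RNA, and the values describe these profiles only. Cdh8 ran closest to A330008L17Rik (r = 0.958) and Epha6 (0.935), Cdh12 to Dlgap2 (0.928) and Kcnj6 (0.923), and Cdh18 to Htr1f (0.925) and Brinp2 (0.903). Cdh9 ran closest to AC116724.1 (0.897), which is annotated antisense to Cdh9 itself, and 4921534H16Rik (0.882). Cdh7 ran with Pak6 (0.896) and Ankrd42 (0.878), and Cdh10 with Phactr3 (0.890) and Cdh20 (0.869), another type II cadherin. Cdh11 ran with Dok6 (0.861) and Gm15810 (0.831), Cdh4 with Farp1 (0.853) and Miga2 (0.766), and Cdh13 with Me3 (0.836) and Rap1gap (0.829). Cdh6 had the lowest values, with Susd5 (0.730) and Cobl (0.669).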

How the data were processed

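The deposited files hold, for each of the 18 libraries, UMI counts per gene and nucleus that the authors made with Cell Ranger, version 3.1.0 per the file headers, on mm10, with no normalization. The submitters' notes also name CASAVA 1.8. The labels and the study's methods name no step on free RNA or doublets in these matrices. Nuclei needed at least 200 genes and at most 10% mitochondrial UMIs, which dropped 828 in Hip and 1096 in PFC. The rest were assigned to types by 87 marker genes, none of them a member, requiring 3 marker UMIs from 2 markers. Nuclei with a profile mixed of types, likely doublets, were set aside (5408 and 3263), with no doublet caller run, and 2060 and 3151 stayed unassigned. Pairs of libraries shared 6 to 29 barcodes (median 16).

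Counts were summed per mouse and type, for types with 10 nuclei or more in a library, and fitted by edgeR 4.0.16 (filterByExpr, TMM, glmQLFit, glmQLFTest), with the 9 mice of a region in 1 fit and Benjamini-Hochberg adjustment over all genes of the fit. CPM printed per mouse is scaled to total UMIs without TMM. SE is the absolute log2 fold change over the square root of F. The 3 mice of a group are separate animals. Neighbouring types were compared by exact permutation of signs over mice on log2(CPM + 1). Gene length and sequence came from GENCODE vM21, which held 30843 of the 30905 genes. The 2 regions of a mouse are from the same animal, so mouse numbers pair them. Their deviations from group means correlated by 0.084 to 0.241 on average, by type, and by -0.119 to -0.042 for other mice of the group. With 3 mice per group the deviations sum to 0, so the second range largely follows from the first. The regional fits have no block, and the block is an alternative. Simulated counts were used to check the main edgeR fits and DESeq2, in microglia and excitatory neurons.

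Members, lists and tests were chosen with earlier results of these data known. Named genes are all members, in each region the other cadherins, catenins or partners that rose most (2) and fell most (2) among those called in excitatory neurons and in microglia, and the 2 genes most alike to each member among those of at least 20 CPM in a type. Magi1 was left out because its symbol was ambiguous. Alternatives were DESeq2 1.42.0, RLE factors, total UMIs (added after seeing the data), no filter, sums thinned to the lowest total of a type and region (which leaves UMIs per nucleus unmatched), the gene length trend removed by loess, a stricter assignment, glia with less neuronal RNA, nuclei with the most UMIs left out, and each mouse left out. Tools were Python 3.11.15, numpy 2.4.6, scipy 1.17.1, pandas 2.3.3, R 4.3.3 and limma 3.58.1.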

Additional observations from a re-analysis of the deposited data

Results flagged for a closer look

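For 28 pairs of a member and a cell type the GF against SPF log2 fold change differed between the regions by a test of the difference itself (edgeR interaction, adjusted p under 0.05), and each value below is that of Hip minus that of PFC. In excitatory neurons the 8 values were -1.09 for Cdh6, -0.60 for Cdh7, -1.29 for Cdh8, -1.18 for Cdh9, -1.29 for Cdh10, -1.23 for Cdh11, -1.54 for Cdh12 and -1.09 for Cdh18. In interneurons the 6 values were -1.003 for Cdh6, -0.55 for Cdh9, -0.92 for Cdh10, -0.70 for Cdh11, -1.45 for Cdh12 and -0.96 for Cdh18. In astrocytes the 3 values were -1.18 for Cdh10, -0.71 for Cdh11 and -1.08 for Cdh12. In oligodendrocytes the 5 values were -1.41 for Cdh6, -1.38 for Cdh8, -1.28 for Cdh10, -0.97 for Cdh11 and -1.60 for Cdh12. In OPC the 3 values were -1.59 for Cdh6, -0.97 for Cdh10 and -0.70 for Cdh11. In microglia the 3 values were -1.75 for Cdh8, -1.66 for Cdh10 and -1.23 for Cdh11. All are negative, and 16 of the 28 were past the threshold in every alternative in which they could be tested. In PFC the GF libraries were deeper than the others, so the group difference there and depth cannot be told apart. In Hip the GF mice had fewer UMIs per nucleus than the SPF mice.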

How the results depend on the processing

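Over 181 calls of a member in a major type, 2881 values under alternatives were computed, of which 2600 kept direction and side of the threshold, 271 fell short of it and 10 changed sign. With the gene length trend removed, the counts of calls in Hip went from 35 to 18 (GF against SPF) and from 36 to 22 (GF against CGF). The values that changed sign all came from that setting, in Hip. Between GF and SPF mice they were 0.17 for Cdh13 in excitatory neurons, 0.056 for Cdh10, 0.096 for Cdh13 and 0.19 for Cdh18 in interneurons, and 0.13 for Cdh13 in astrocytes. Between GF and CGF mice they were 0.21 for Cdh12 and 0.0997 for Cdh13 in excitatory neurons, and 0.060 for Cdh10, 0.084 for Cdh13 and 0.058 for Cdh8 in interneurons. Over 123 calls in neuron subtypes 2084 values were computed, of which 1928 kept direction and side, 149 fell short and 7 changed sign, again with the length trend removed in Hip. Between GF and SPF mice these were 0.014 for Cdh8, 0.24 for Cdh13 and 0.26 for Cdh18 in dentate granule neurons. Between GF and CGF mice they were 0.24 for Cdh12 and 0.19 for Cdh13 in dentate granule neurons, 0.17 for Cdh12 in CA3 neurons and 0.083 for Cdh13 in Lhx6-family interneurons. The cause was not tested. Between CGF and SPF mice DESeq2 and no filter each gave 1 call in Hip (0 in the fit reported), and no filter 1 in PFC.

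Leaving out 1 mouse at a time gave 28 to 37 calls in Hip and 25 to 30 in PFC for GF against SPF, 31 to 36 and 28 to 32 for GF against CGF, 0 and 0 to 3 for CGF against SPF, 12 to 18 for Hip against PFC in GF mice (20 with all), and 33 to 46 and 44 to 57 for the other cadherins, catenins and partners. Calls past the threshold in every alternative in which they could be tested numbered 15 of 35 and 19 of 30 for GF against SPF in Hip and PFC, 16 of 36 and 22 of 32 for GF against CGF, and 12 of 20 for the regions. With the mouse as replicate block, pairing both regions of an animal, the regional calls went from 20 to 24 and the interaction from 28 to 30, and Cdh9 in interneurons was lost in each (adjusted p = 0.05 and 0.053). Microglia were shallow (92 to 370 nuclei per library), and Cdh4, Cdh6 and Cdh7 could not be tested there.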

Other observations

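Outside neurons and the 4 glial types, the members were also measured in small populations of the tissue. Choroid plexus epithelium, which makes cerebrospinal fluid, was found with 31 to 250 nuclei in 7 hippocampal libraries, and Cdh18 there was at 369 ± 154 CPM, from 206 to 682 CPM over the mice. Per 100 kb of gene this was 39.9 CPM, beside 33.0 for Cdh9, 31.4 for Cdh11 and 19.9 for Cdh10. In CPM, Cdh9, Cdh11 and Cdh10 were at 42.3, 48.2 and 38.9 there. Their means in hippocampal endothelial cells were higher, at 50.0, 75.9 and 48.8 CPM, while Cdh18 was at 29.3 CPM in those cells. Whether the choroid plexus itself makes Cdh9, Cdh10 or Cdh11 was not tested. The mean Cdh18 level of the choroid plexus, without a test, was above those of hippocampal interneurons (299 ± 61.7 CPM) and of ependymal cells (35.6 ± 23.7 CPM). Fibroblasts of the meninges and vessels had 237 ± 81.1 CPM of Cdh11 in Hip and 233 ± 115 CPM in PFC, beside 75.9 ± 43.0 CPM and 56.5 ± 21.0 CPM in endothelial cells. Mural cells had 169.9 ± 95.4 CPM of Cdh6 in Hip and 279 ± 123 CPM of Cdh4 in PFC. These populations were not tested between groups.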
